A study of Mus musculus with 6 samples.

Results

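The 36 genes described here encode sensors and transcription factors of the unfolded protein response, chaperones and oxidoreductases of the endoplasmic reticulum (ER), ER-associated degradation (ERAD) factors and parts of the ER translocation channel. They were taken by gene symbol from the table of 16440 genes, and all 36 were found in it and passed the filter on low values. The rule uses the symbols only, not the values, but the 36 genes were chosen with earlier results of these data known. RNA sequencing covered 6 libraries, 3 from normal mouse myeloid progenitors (MPs) and 3 from acute promyelocytic leukemia (APL) progenitors, and asked which genes are expressed differently in immature APL cells. The normal MPs were Lin-Sca-1-c-Kit+ bone marrow (BM) cells of FVB N/J mice, a gate that leaves out mature lineages and Sca-1+ stem cells and holds a mixture of granulocytic, monocytic, erythroid and megakaryocytic precursors. The c-Kit+ APL progenitors, also labelled FVB N/J, descend from hMRP8-PML/RARα transgenic mice, in which a human myeloid promoter drives the fusion oncogene. They were sorted for c-Kit. The paper describes GFP labelling with the retroviral vector MigR1 and passage through syngeneic recipients for the APL cells of its treatment experiment. Its comparison with MPs does not restate these steps. No treatment is labelled for either group. The paper's supplement gives an age range in weeks for transplant recipients at injection, and these were non-irradiated or sublethally irradiated. Neither the age of the MP donors nor the number of primary leukemias behind the 3 APL libraries is given in the sources used here. Hence n counts libraries.

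Secreted and membrane proteins enter the ER through the Sec61 channel, are folded there by chaperones such as BiP (Hspa5) and are joined by disulfide bonds through protein disulfide isomerases. When unfolded proteins accumulate, the sensors IRE1α (Ern1), PERK (Eif2ak3) and ATF6 start the unfolded protein response. IRE1α splices Xbp1 mRNA, PERK slows translation and favours the production of ATF4, and cleaved ATF6 enters the nucleus, and together these arms raise the genes of chaperones and of ERAD. Granulocyte precursors at the promyelocyte stage make large amounts of primary granule proteins in the ER, and loss of Xbp1 is known to impair plasma cells and eosinophils, which are highly secretory cells. Splicing of Xbp1, phosphorylation of PERK and cleavage of ATF6 cannot be read from gene-level values.

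A shared promoter element is the sequence feature best known for these genes. The ER stress response element (ERSE) was searched as CCAAT, then 9 bases of any kind, then CCACG, and its variant ERSE-II as ATTGG, then 1 base, then CCACG, on both strands of the RefSeq promoters (GRCm38.p6) from 250 bases before to 50 bases after each gene start. A promoter was matched for 32 of the 36 genes, and Hyou1, Manf, Derl1 and Atf6 had none in the promoter table. The stretches below are written 5′ to 3′ along the gene's strand with the motif in capitals and 10 bases kept on each side. They were chosen because they carry the ERSE in main chaperones (Hspa5, Hsp90b1, Calr), in Creld2 and in the gene that changed most (Derl3). Canx was added as a chaperone with the ERSE that was not called. Herpud1 carries the ERSE-II, and the gene that fell most (Txndc5) a motif of another kind.
Hspa5 (chr2:34772015-34772053, + strand): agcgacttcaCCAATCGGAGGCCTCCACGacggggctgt
Hsp90b1 (chr10:86705523-86705666, - strand): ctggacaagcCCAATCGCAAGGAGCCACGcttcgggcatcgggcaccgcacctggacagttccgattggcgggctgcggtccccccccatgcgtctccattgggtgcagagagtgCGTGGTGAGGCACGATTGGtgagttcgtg
Calr (chr8:84847065-84847103, - strand): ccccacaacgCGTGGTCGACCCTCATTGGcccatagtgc
Creld2 (chr15:88819510-88819548, + strand): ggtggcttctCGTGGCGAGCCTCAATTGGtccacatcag
Canx (chr11:50325790-50325828, - strand): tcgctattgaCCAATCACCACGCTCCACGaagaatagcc
Derl3 (chr10:75893232-75893270, + strand): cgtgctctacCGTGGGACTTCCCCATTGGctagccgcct
Herpud1 (chr8:94386307-94386397, + strand): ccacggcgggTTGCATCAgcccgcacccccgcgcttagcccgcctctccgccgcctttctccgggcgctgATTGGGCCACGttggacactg
Txndc5 (chr13:38528035-38528062, - strand): gcctcgccgcTGACGTGGcgctagccgc

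The ERSE was found in 10 of the 32 matched genes, which were Hspa5, Hsp90b1, Dnajc3, Calr, Canx, Pdia6, Creld2, Ero1lb, Syvn1 and Derl3. Of 11537 genes tested that had a promoter in the table, 0.191% held it, against 31.2% of the 32. In Calr, Creld2, Derl3 and Ero1lb the motif ran against the direction of transcription, so the capitals above show its reverse complement, and Hsp90b1 held 1 match in each direction. ERSE-II was found in Herpud1 and Dnajb11 (0.078% of the 11537 genes). The unfolded protein response element, searched as TGACGTGG, was present only in Txndc5 among the 32 genes (0.988% of the 11537), in the third of its 3 promoter windows. The C/EBP-ATF response element, searched as TTGCATCA or TTTCATCA, occurred in Herpud1, where it is the first run of capitals above, and in another Txndc5 window (1.57% of the 11537). No matches within a promoter overlapped. A match describes letters in a window, not a bound site, and its absence says only that these letters are not in that window.

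The deposited values are estimated fragments per gene, multiplied by a factor for each library, and are called scaled fragments. Dividing the total of each library by an estimate of its factor gave depths between 20608715 (APL library 1) and 28382785 fragments (APL library 2). These depths are estimates, not counted reads. The labelled cell types were checked with marker genes. Of the 4 progenitor sort markers 2 fell and 2 rose. Kit was detected in all libraries but lower in APL (10668 ± 272 scaled fragments in MPs, 5929 ± 132 in APL, SD, n = 3 each), and Cd34 fell from 6684 to 82.6 on average. Fcgr3 rose from 780 to 2873 and Ly6a, the gene of Sca-1, from 27.2 to 43.4, a low level in both groups. The primary granule genes Mpo, Elane and Ctsg rose in APL while Prtn3 was not called. All 6 erythroid markers fell, and their summed FPKM (fragments divided by transcript length and library size) went from between 1500 and 1976 in MPs to between 12.2 and 23.2 in APL. In bulk RNA, fewer cells of a type and less RNA per cell cannot be told apart.

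As a group, the 36 ER chaperone and unfolded protein response genes listed here were higher in APL than in MPs. A gene was called at a Benjamini-Hochberg adjusted p under 0.05 over all 14595 genes tested, from limma on log2(scaled fragments + 1), with a fold change over 1.5. By that rule 29 of the 36 genes rose (80.6%, against 21.7% of all genes tested), 2 fell (5.56%, against 24.4%) and 5 were not called, so that 31 were called in either direction (46.1% of all genes tested). The 2 that fell were Txndc5, a disulfide isomerase, and Ern1, the IRE1α sensor. The 5 without a call were Canx, Derl2, Atf6, Ddit3 and Ppp1r15a, of which Derl2 and Atf6 passed the adjusted p but not the fold. On the adjusted p alone 31 of the 36 genes were higher in APL (29.7% of all genes tested). The median log2 fold change was 1.11 over the 36 genes and -0.10 over all genes tested. For 32 of the 36 genes all APL libraries lay above all MP libraries (31.1% of all genes tested), and for 2 they lay below (39.8%), which makes 34 genes without overlap (70.9%). An exact two-sided permutation test of a single gene gave p = 0.1 for these 34 genes, the smallest value that 3 libraries against 3 allow.

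Most of the increases were moderate and alike in size. Of the 29 genes that rose, 25 did so by between 1.5-fold and 3.5-fold, and the median of the 29 was 2.33-fold. The exceptions above 3.5-fold were Sdf2l1, Edem1, Herpud1 and Derl3. A 95% interval entirely above a log2 fold change of 1 was found for 15 of the 36 genes (the share of all genes tested is not given here). Together the 36 genes held 1.02% to 1.20% of the scaled fragments of an MP library and 2.30% to 2.39% of those of an APL library. Replicates were close, with a median coefficient of variation over the genes of 6.59% in MPs and 5.61% in APL.

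**Figure D1:**
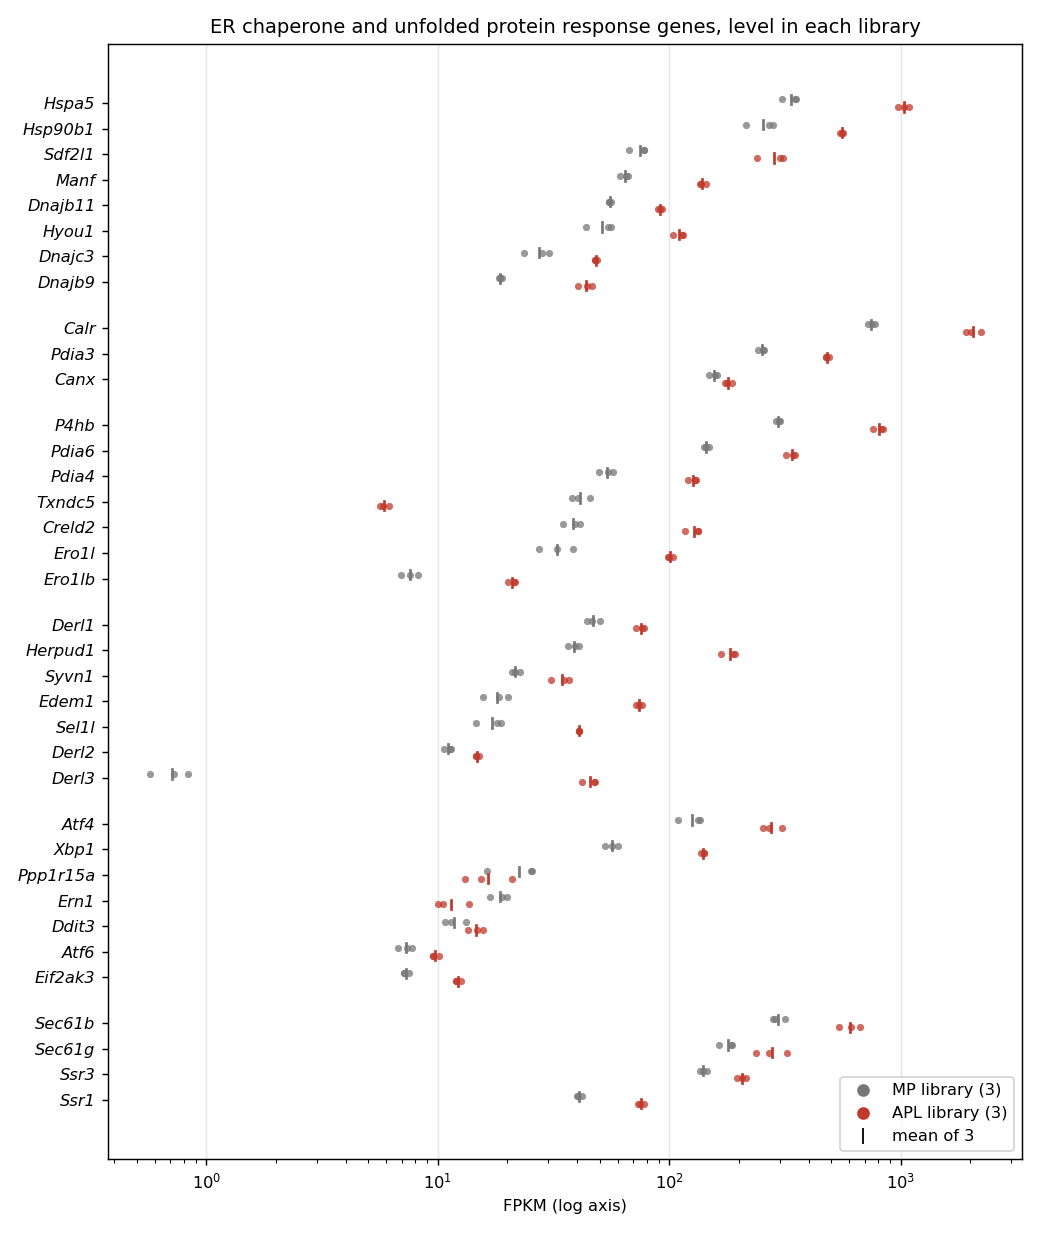
FPKM of each of the 36 genes (log axis) in the 3 MP libraries (grey points) and the 3 APL libraries (red points), with a vertical tick at each mean and the genes grouped by role. The red points lie to the right of the grey ones for most genes, Txndc5 shows the opposite order, and Derl3 has the widest gap (0.711 against 45.6 FPKM on average).

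All 8 chaperones of the HSP70 and HSP90 systems and their partners rose (against 21.7% of all genes tested). Their median log2 fold change was 1.12. Hspa5 encodes BiP, the ER HSP70 that binds unfolded chains and holds the stress sensors inactive. Its libraries had 28631, 29035 and 25138 scaled fragments in MPs and 79401, 84059 and 90118 in APL. The lowest APL library was far above the highest MP library, and the rise was 3.06-fold (log2 1.62 ± 0.12, where ± is the SE of a log2 fold change here and below, limma adjusted p = 4.0e-06). Hsp90b1, which encodes GRP94, the ER HSP90, had 26192, 26828 and 20721 scaled fragments in MPs and 52258, 51208 and 55104 in APL. MP library 3 was the lowest of the 6, and the groups did not overlap (2.16-fold, limma adjusted p = 6.2e-05). The ratio of Hspa5 to Hsp90b1 in FPKM was 1.26 to 1.43 in MPs and 1.75 to 1.93 in APL.

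Sdf2l1, a small ER protein that works with BiP and its J-domain partners, had the largest rise of the 8. Its values were 1867, 1857 and 1733 scaled fragments in MPs and 5821, 7434 and 7339 in APL, a 3.75-fold difference (log2 1.91 ± 0.10, limma adjusted p = 4.6e-07). APL library 1 was the lowest of its group and still more than 3 times the highest MP value. The J-domain partners of BiP rose less. Dnajb9 rose 2.38-fold, Dnajc3 (also called p58IPK) 1.8-fold and Dnajb11 1.64-fold. Hyou1, the large ER HSP70 that exchanges nucleotide on BiP, rose 2.15-fold, and Manf, a secreted ER stress protein that binds BiP, rose 2.18-fold. The limma adjusted p of these 5 genes lay between 1.4e-06 and 7.5e-05.

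The lectin chaperones calreticulin and calnexin, which hold glycoproteins by the same sugar, gave different values. Calr, the soluble lectin of the ER lumen, had 48315, 46458 and 45548 scaled fragments in MPs and 115520, 123922 and 136247 in APL. It was the most abundant of the 36 genes per length in both groups, at 747 ± 26.2 FPKM in MPs and 2050 ± 157 FPKM in APL (SD, n = 3), where it rose from rank 113 to rank 34 among all genes. The rise was 2.67-fold (log2 1.42 ± 0.14, limma adjusted p = 2.1e-05). Canx, the membrane-bound lectin, had 19381, 20071 and 18137 scaled fragments in MPs and 21407, 22039 and 23551 in APL. Its APL libraries were all slightly above its MP libraries, but it was not called (log2 0.22, 95% interval 0.01 to 0.42, limma adjusted p = 0.058). The ratio of Calr to Canx in FPKM was 4.64 to 4.89 in MP libraries and 10.9 to 11.9 in APL libraries. Pdia3, the disulfide isomerase that both lectins recruit, rose 1.93-fold. Calr lies on chromosome 8, where the other genes tested had a median log2 fold change of 0.48, while Canx lies on chromosome 11, where that median was -0.17, and the part of chromosome 8 in the difference between the genes was not tested.

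Oxidative folding divided into 6 genes that rose (85.7%, against 21.7% of all genes tested) and a single gene that fell (14.3%, against 24.4%). P4hb, the archetypal protein disulfide isomerase, had 22068, 21142 and 22432 scaled fragments in MPs and 55501, 62116 and 61420 in APL, a 2.72-fold rise (limma adjusted p = 3.0e-06). The isomerases Pdia4 and Pdia6 rose 2.33-fold each. Ero1l, the oxidase that recharges P4hb, had 4406, 3829 and 3101 scaled fragments in MPs and 12007, 11584 and 12040 in APL, and its relative Ero1lb had 903, 858 and 766 in MPs and 2400, 2289 and 2467 in APL. Both were lowest in MP library 3 and nearly level across the APL libraries, and they rose 3.17-fold and 2.84-fold (limma adjusted p = 2.9e-06 and 5.4e-07). Creld2, an ER stress gene, went from 1483, 1550 and 1420 to 4403, 4981 and 5133 scaled fragments, a 3.25-fold rise (limma adjusted p = 2.3e-07). It lies on chromosome 15, whose other tested genes had a median log2 fold change of 0.46.

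Txndc5, which encodes the isomerase ERp46, went the other way. Its libraries had 2708, 2855 and 3292 scaled fragments in MPs and 404, 442 and 416 in APL. Every APL library was below every MP library, and the gene was 6.98-fold lower in APL (log2 -2.80 ± 0.09, limma adjusted p = 3.2e-08). Per length it fell from 41.3 ± 3.66 to 5.88 ± 0.257 FPKM, from rank 19 to the last rank of the 36 genes. The ratio of Txndc5 to P4hb in FPKM was 0.126 to 0.152 in MP libraries and 0.00707 to 0.00747 in APL libraries. Among all genes tested, 7.69% fell by more. Of its 3 promoter windows none held an ERSE or ERSE-II, and 1 held the TGACGTGG letters printed above.

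**Figure D2:**
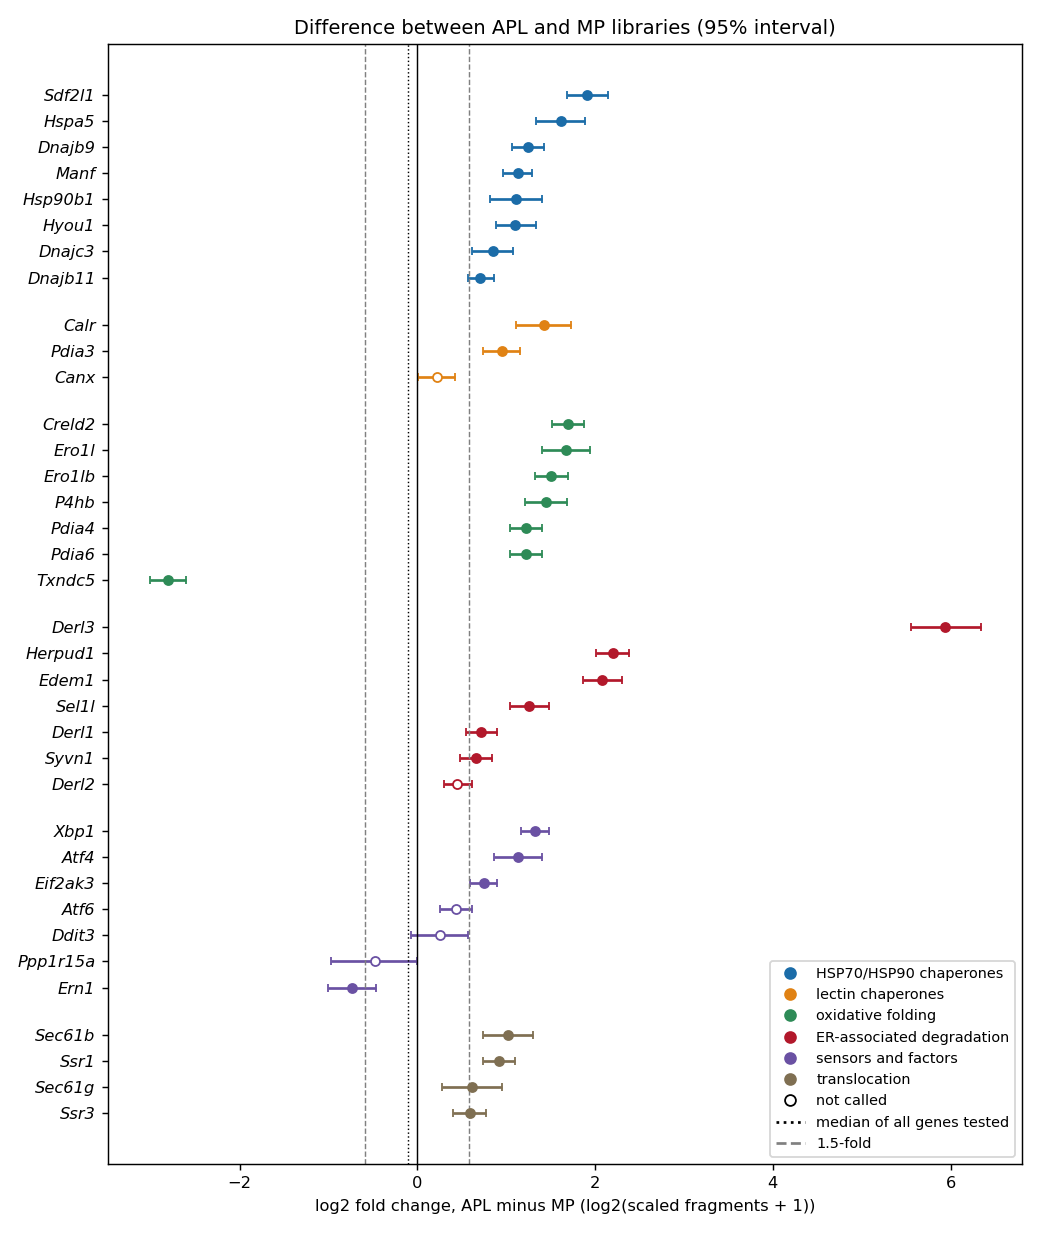
Log2 fold change (APL minus MP, on log2(scaled fragments + 1)) of each gene with its 95% interval from limma, ordered within each role and coloured by role, with open points for genes not called, a dotted line at the median of all genes tested (-0.10) and dashed lines at 1.5-fold. Derl3 at 5.94 and Txndc5 at -2.80 stand apart, and the other 34 genes lie between -0.74 and 2.20.

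ERAD, the export of misfolded ER proteins to the proteasome, had 6 of 7 genes called up (85.7%, against 21.7% of all genes tested). Its median log2 fold change was 1.26, and it held the 3 largest rises of the 36 genes (Derl3, Herpud1 and Edem1). Derl3, a Derlin of the export channel that is typical of secretory cells, was near silent in MPs. Its libraries had 19.7, 15.2 and 23.4 scaled fragments in MPs and 1140, 1311 and 1275 in APL. The 61.5-fold rise (log2 5.94 ± 0.17, limma adjusted p = 2.3e-08) started from about 20 fragments per library, so its size rests on low MP values although its direction does not. Only 0.884% of all genes tested rose more, and on the FPKM scale Derl3 moved from the last rank of the 36 genes to rank 25.

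The other Derlins had smaller differences. Derl1 rose 1.65-fold from between 3334 and 3779 to between 5429 and 6024 scaled fragments, and it is on chromosome 15, with the raised chromosome median given above. With the median of each chromosome removed its log2 fold change was 0.26 and the call was lost. Derl2 had 946, 1031 and 985 scaled fragments in MPs and 1355, 1332 and 1370 in APL. The groups did not overlap, but the difference of 1.37-fold was under the fold threshold (limma adjusted p = 3.8e-04). With chromosome medians removed Derl2 stood at 0.63 and was called up, so that the order of Derl1 and Derl2 turned. In FPKM, Derl3 stood at 0.0499 to 0.0743 of Derl2 in MP libraries and at 2.76 to 3.27 times Derl2 in APL libraries.

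Herpud1, a membrane protein that gathers the export complex and is itself a classical ER stress gene, had 1736, 1826 and 1965 scaled fragments in MPs and 7754, 8821 and 8836 in APL. It rose 4.59-fold (log2 2.20 ± 0.08, limma adjusted p = 6.4e-08), also with the chromosome 8 median beside it. Edem1, which marks misfolded glycoproteins by trimming mannose, had 2983, 2796 and 2353 scaled fragments in MPs and 10940, 11868 and 11398 in APL, and rose 4.22-fold (limma adjusted p = 2.2e-07). Both were more than 3 times higher in any APL library than in any MP library. Sel1l and Syvn1 encode the adaptor and the ubiquitin ligase (HRD1) of the same complex. Sel1l rose 2.40-fold, with APL values within 7242 to 7346, and Syvn1 rose 1.58-fold. The locus of Syvn1 is shared with Mrpl49, which went the other way (log2 -0.65), and the strand used in counting is not given in the sources used here, so reads could be divided between them.

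**Figure D3:**
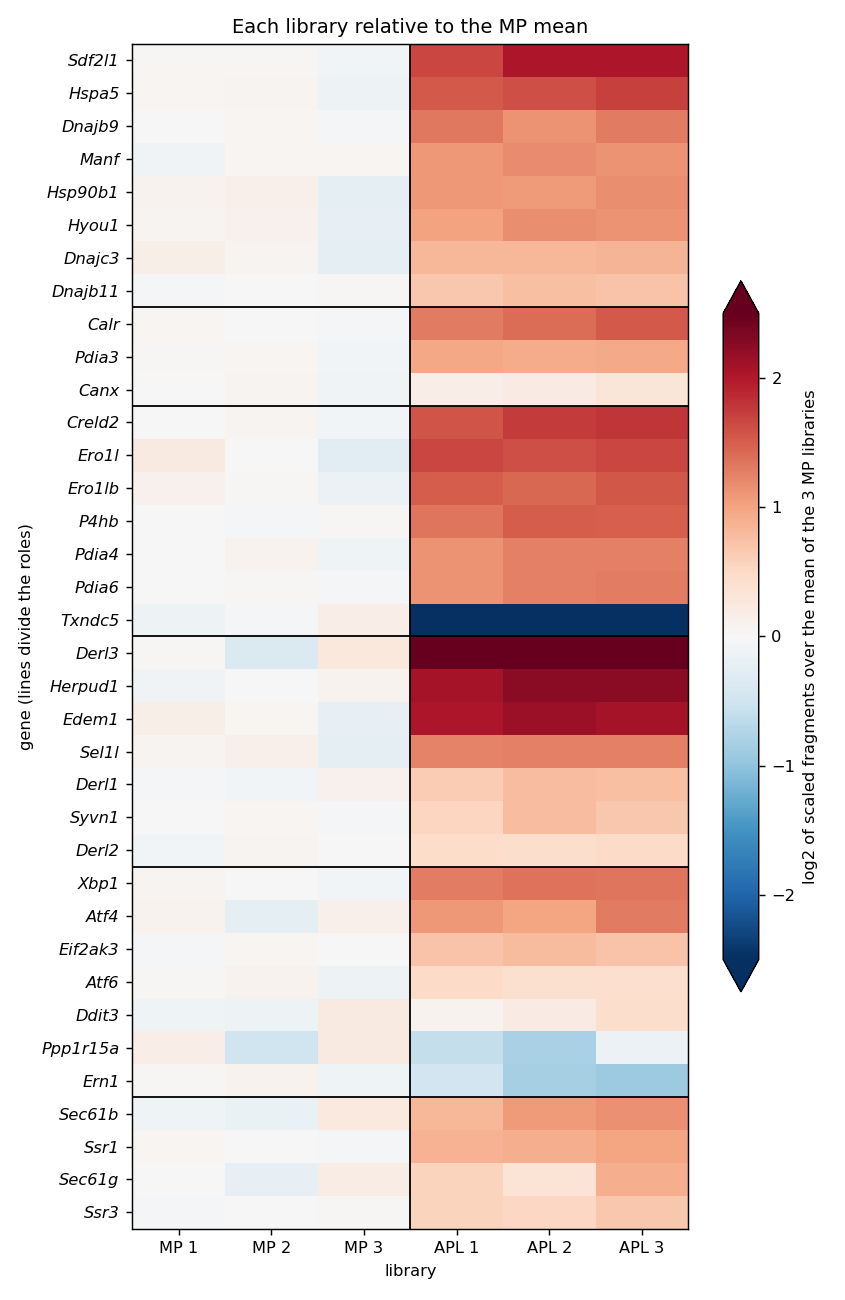
Log2 of the scaled fragments of each gene in each of the 6 libraries over the mean of the 3 MP libraries, with genes as rows grouped by role and libraries as columns; the colour scale ends at 2.5 on either side. The 3 APL columns are red for most rows and alike, Txndc5 is blue, and MP library 3 is slightly blue for several genes, among them Ero1l and Hsp90b1.

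The sensors and transcription factors had the lowest median of the 6 roles (log2 fold change 0.43). Of these 7 genes 3 rose (42.9%, against 21.7% of all genes tested), 1 fell (14.3%, against 24.4%) and 3 were not called. Xbp1, the factor that IRE1α activates by splicing, had 3225, 3044 and 2921 scaled fragments in MPs and 7454, 7809 and 7697 in APL. It rose 2.5-fold (log2 1.32 ± 0.07, limma adjusted p = 4.0e-07), and the values do not separate the spliced from the unspliced form. Ern1, the gene of IRE1α itself, had 2227, 2316 and 2023 scaled fragments in MPs and 1576, 1228 and 1163 in APL. All APL libraries were below all MP libraries, and Ern1 was 1.67-fold lower (log2 -0.74 ± 0.12, limma adjusted p = 4.9e-04). With chromosome medians removed it stood at -0.57 and was not called. Eif2ak3, the gene of PERK, rose 1.68-fold. Atf6 was 1.35-fold higher with no overlap between the groups (limma adjusted p = 9.2e-04), under the fold threshold.

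Atf4, the transcription factor whose translation PERK favours, had 5472, 4411 and 5651 scaled fragments in MPs and 10956, 10299 and 12698 in APL, and rose 2.19-fold (limma adjusted p = 3.2e-05). It too lies on chromosome 15. Ddit3 encodes CHOP, the factor that ATF4 induces under lasting stress. It had 253, 249 and 319 scaled fragments in MPs and 292, 315 and 370 in APL, so the groups overlapped and it was not called (log2 0.25, 95% interval -0.07 to 0.57, limma adjusted p = 0.15). The locus of Ddit3 is shared with Mars (log2 -0.41), with the same limit as for Syvn1. Ppp1r15a encodes GADD34, which restores translation after PERK signalling. It had 1940, 1222 and 1997 scaled fragments in MPs and 1135, 986 and 1553 in APL, so the groups overlapped, with the widest relative spread of the 36 genes in either group, and it was not called (log2 -0.48, 95% interval -0.97 to 0.00, limma adjusted p = 0.074). Ppp1r15a was called down in 4 alternatives, with the same total or voom (-0.61), without MP library 2 (-0.71) and without APL library 3 (-0.67). Ddit3 was called in none of those run.

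All 4 translocation genes rose (against 21.7% of all genes tested), with a median log2 fold change of 0.77. Sec61b, a small subunit of the Sec61 channel, had 2264, 2177 and 2898 scaled fragments in MPs and 4339, 5116 and 5375 in APL, a 2.03-fold rise (limma adjusted p = 8.9e-05). Sec61g, the other small subunit, had 2613, 2275 and 2959 scaled fragments in MPs and 3870, 3314 and 4921 in APL. Its groups lay close together, the rise was 1.53-fold (limma adjusted p = 5.3e-03), and the call was lost without MP library 2 (log2 0.52), without APL library 3 (0.46), with libraries scaled to the same total or with voom (0.48) and after quantile normalization (0.55). The translocon-associated proteins Ssr1 and Ssr3 rose 1.89-fold and 1.5-fold, the latter just above the fold threshold, and Ssr3 lost its call in 7 alternatives, which were the same total and voom (0.45), quantile normalization (0.50), FPKM with either pseudocount (0.55), and leaving out MP library 1 (0.57) or APL library 3 (0.54).

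Per length, the order of the 36 genes was led by the same abundant chaperones in both groups. In MPs Calr (747 FPKM) was followed by Hspa5 (337 ± 26.8), P4hb (296 ± 7.16), Sec61b (295 ± 17.7), Hsp90b1 (255 ± 35.7) and Pdia3 (251 ± 7.71). P4hb and Sec61b did not differ beyond their spread there, nor did Hsp90b1 and Pdia3. In APL the first 6 places went to the same genes in the same order, at 2050, 1032, 806, 606, 558 and 481 FPKM, and the ranges of Sec61b and Hsp90b1 overlapped. The sensor genes were at the low end. Atf6 had 7.28 FPKM in MPs and 9.75 in APL, Eif2ak3 7.26 and 12.2, and Ern1 18.6 and 11.4.

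MP library 3 differed from the other MP libraries in these genes. It was below both MP libraries 1 and 2 for 21 of the 36 genes (25.1% of all genes tested), above both for 13 and between them for 2. Its median ratio to their mean was 0.96 over the 36 genes and 1.09 over all genes tested. The lowest ratios were those of Ero1l (0.753), Hsp90b1 (0.782), Dnajc3 (0.788), Sel1l (0.797), Edem1 (0.814) and Hyou1 (0.821). ERAD genes lay on either side, since Derl3 stood at 1.34, Derl1 at 1.12 and Herpud1 at 1.10. Without MP library 3 the counts were again 29 genes up and 2 down.

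Other genes of the same pathways, from lists that leave out the 36, had 37 of 121 genes up (30.6%, against 21.7% of all genes tested), 8 down (6.61%, against 24.4%) and a median log2 fold change of 0.30. The counts of the lists that follow stand beside the same 2 shares. Oligosaccharyltransferase, the enzyme that adds the sugar recognised by the lectin chaperones, had 6 of 10 genes up (60.0%) and none down. Its leading subunit genes were Krtcap2 (2.35-fold) and Ostc (2.20-fold). Among further translocation genes 9 of 20 rose (45.0%) and none fell, led by the signal peptidase genes Spcs3 (2.20-fold, on chromosome 8) and Sec11c (2.19-fold). Of further ERAD genes 3 of 22 rose (13.6%, below the share of all genes tested), led by Edem2, a relative of Edem1 (3.26-fold), and Vimp, a membrane anchor of the export complex (2.71-fold).

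Of other folding genes 10 of 36 rose and 7 fell (27.8% and 19.4%), near the shares of all genes tested. Fkbp11, a prolyl isomerase of secretory cells on chromosome 15, had 223, 205 and 203 scaled fragments in MPs and 1355, 1580 and 1691 in APL (7.28-fold higher, limma adjusted p = 5.9e-08). Pdia5, a further disulfide isomerase, rose 4.57-fold. Prdx4, an ER peroxiredoxin that works beside Ero1 in disulfide formation, fell from 748, 701 and 1070 to 111, 106 and 121 scaled fragments (7.29-fold lower, limma adjusted p = 7.8e-07), and the prolyl isomerase gene Ppic was 13.9-fold lower (limma adjusted p = 3.1e-07).

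The targets of ATF4 and CHOP had 5 of 18 genes up (27.8%, near the share of all genes tested), 1 down and a median log2 fold change of 0.40. Chac1, a glutathione-degrading enzyme and a marker of the PERK arm, had 7.49, 10.5 and 8.12 scaled fragments in MPs and 183, 214 and 200 in APL (20.8-fold higher, limma adjusted p = 2.8e-07), and Cebpb, a myeloid transcription factor, rose 3.88-fold. Of the sensor network 4 of 15 genes rose (26.7%, also near that share), among them Tmbim6, an inhibitor of IRE1α signalling on chromosome 15 (2.37-fold), and Creb3l2, an ER-tethered relative of ATF6 (1.70-fold). The chaperones of the cytosol had 2 of 12 genes up (16.7%, Hspa1b and Bag3), 1 down (Hsph1) and a median log2 fold change of 0.04. The difference between the lists was not tested.

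**Figure D4:**
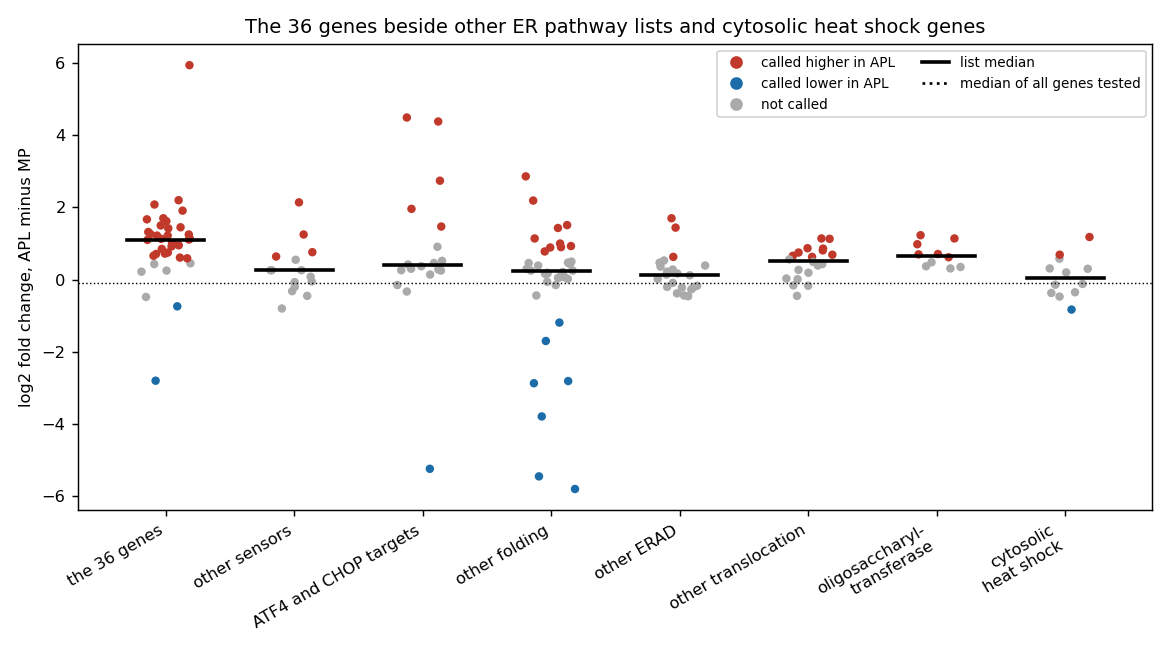
Log2 fold change (APL minus MP) of every tested gene in the 36-gene list, in 6 lists of other ER pathway genes and in the cytosolic heat shock list, coloured by call, with a bar at each list median and a dotted line at the median of all genes tested. The list medians are 1.11 for the 36 genes, 0.66 for oligosaccharyltransferase, 0.13 for other ERAD genes and 0.04 for cytosolic heat shock.

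Markers of cell types that could carry these genes moved with the groups too. The 4 primary granule genes, products of promyelocytes that pass through the ER, had a summed level of 8378 to 9460 FPKM in MPs and 22920 to 27383 FPKM in APL, with 3 of 4 called up. B and plasma cell markers, whose cells are rich in Xbp1 and Derl3, summed to 13.7 to 16.6 FPKM in MPs and 1.49 to 1.96 FPKM in APL. Most of the MP sum was the B cell gene Cd79b (13.0 FPKM in MPs, 0.248 in APL). Of the others, Sdc1 had 117 scaled fragments in MPs and 2.19 in APL, Irf4 had 5.24 and 4.66, Prdm1 5.62 and 3.63, Tnfrsf17 under 1 in both, and Igj, the only gene of the list that rose, 10.8 and 70.6. Megakaryocyte markers summed to 60.7 to 93.8 FPKM in MPs and 3.07 to 4.67 in APL, with 3 of 5 called down, and dendritic cell markers to 19.5 to 28.3 and 0.841 to 0.966, with 3 of 4 down. Late neutrophil markers summed to between 1028 and 2184 FPKM in MPs and between 1124 and 1291 in APL (1 of 5 up, 2 down), monocyte markers to 35.9 to 42.6 and 26.3 to 28.0 (2 of 5 up, 3 down), mast cell and basophil markers to 49.0 to 68.5 and 41.7 to 49.7 (1 of 5 up, 3 down), and T and NK cell markers to at most 4.03 FPKM in any library. The part of the cell mixture of the MP gate and of the granule program in the higher ER gene levels was not tested.

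Among the 32 genes with a promoter, the 12 with an ERSE or ERSE-II had 11 genes up, none down and Canx not called, with a median log2 fold change of 1.32. The 20 with neither had 15 up, 2 down and 3 not called, with a median of 0.98. Beside these counts, 80.6% of the 36 genes and 21.7% of all genes tested rose, and 5.56% and 24.4% fell. The difference between genes with and without the motif was not tested. Values with the motif ran from 0.22 (Canx) to 5.94 (Derl3) and without it from -2.80 (Txndc5) to 2.08 (Edem1), so the ranges overlapped widely.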

How the data were processed

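RNA sequencing of 3 MP and 3 APL libraries was analysed from a table of 16440 genes. The authors deposited FPKM values, normalized to length and mapped fragments, and a signal on the scale of fragments, on which each library carries a scaling factor of its own. These are called scaled fragments. Of the low values of a library 89.0% to 90.3% were whole multiples of a step (0.8669 to 1.234, tolerance 0.02 of the step), and whole reads could not be recovered for nearly all genes. The submitters' processing notes name CASAVA 1.8, TopHat2 2.0.6 and mm10, whereas the paper's methods name STAR with mm9, HTSeq-count and DESeq2, and the tool that made the table is not given in the sources used here. Loci follow GRCm38 and their starts were raised by 1, since 7057 starts then matched RefSeq against 586 as written. Scaled totals lay between 21876288 and 25810097.

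The scaled fragments were tested in limma 3.58.1 (R 4.3.3) with lmFit and a trended eBayes on log2(scaled fragments + 1), two-sided, with no covariate. Genes that reached 1 scaled fragment in 3 or more of the 6 libraries entered the fit (14595). Calls needed a Benjamini-Hochberg adjusted p under 0.05 and a fold change over 1.5. Fold changes on this scale understate the change of low genes. Summed and ranked levels used FPKM. All 36 genes were named, and from each list of other pathway genes the 2 largest changes in each direction with no overlap between groups and a mean of at least 100 scaled fragments. The 36 genes and all lists were chosen with earlier results of these data known. The series text calls the samples biological replicates without saying how the animals were kept apart, so p-values measure the spread between these samples. On simulated data the test recovered 200 of 200 changed genes among 14480, with 4 false calls. Recovery with as large a share of changed genes as was called in these libraries (46.1%) was not tested. Promoters were searched in the RefSeq GRCm38.p6 table, and figures drawn with matplotlib 3.10.9 (Python 3.11.15). Alternatives covered filters, pseudocounts, scalings, FPKM, voom, robust variances, a replicate block, removal of chromosome medians, the fold threshold and each library left out.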

Additional observations from a re-analysis of the deposited data

How the results depend on the processing

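No value of the 36 genes reversed under the 22 alternatives, of which 20 gave a new fold change for each gene. Of these 720 values 697 kept their direction and their side of the threshold, 18 lost a call and 5 gained one, and 28 of the 36 genes kept their call in all 20. The exceptions were Derl1, Derl2, Dnajb11, Ern1, Ppp1r15a, Sec61g, Ssr3 and Syvn1. Genes called up, 29 as reported, numbered 20 at a fold threshold of 2, 31 with none, 25 with libraries scaled to the same total or with voom, which moved the median of all genes by -0.13, 27 after quantile normalization, 28 with FPKM, and 27 to 29 with a library left out. In both of these scalings Dnajb11 (log2 0.58), Syvn1 (0.53), Sec61g (0.48) and Ssr3 (0.45) lost their call and Ppp1r15a was called down (-0.61), as it was without MP library 2 (-0.71) or APL library 3 (-0.67). Genes called down numbered 1 with chromosome medians removed, 1 at a fold threshold of 2, and 2 to 3 with a library left out. Over all 14595 genes tested, 3167 were up and 3558 down as reported. These counts were 2753 and 4273 with the same total, 2735 and 4264 with voom, and 3567 and 3277 after quantile normalization. With a library left out 2734 to 3256 genes were up and 2913 to 3507 down. Without a fold threshold 29.7% of all genes tested were higher in APL, and the share at a threshold of 2 is not given here. Of the 121 other ER pathway genes, 19 were called up at a fold threshold of 2 and 68 with none, against 37, and 35 to 39 with a library left out. Called down were 4 with a value of at least 1 required in all 6 libraries or with FPKM and a pseudocount of 1, and 17 without a fold threshold, against 8, and 6 to 8 with a library left out. The causes were not tested.

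Libraries share the numbers 1 to 3 across groups. The deviations of same-numbered libraries correlated at 0.214, 0.0416 and 0.209 over 10310 genes, and those of differently numbered libraries at -0.345 to 0.2. With 3 libraries per group these values do not decide whether the numbers mark pairs, and they were not taken as pairs. With the replicate number as a block 29 of the 36 genes were up and 2 down, and 37 and 8 of the other pathway genes. A count test on whole reads, planned as an alternative, was not run because the values are scaled estimates.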

Other observations

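The ERSE and ERSE-II letters were also found in the promoters of 19 tested genes outside the 36, which were chosen by sequence after the values above were seen. Of these, 8 rose, 5 fell and 6 were not called, with a median log2 fold change of 0.02, beside 21.7% up and 24.4% down over all genes tested. The 8 that rose were Tdrd9, a germline RNA helicase (log2 7.26), Adcy3, an adenylate cyclase (3.79), Calr4, a relative of calreticulin, Nucb1, a calcium-binding protein of the Golgi (1.54), Alg12, a mannosyltransferase that builds the sugar attached to new glycoproteins (1.26), Krtcap2, Acacb, an acetyl-CoA carboxylase (0.81), and Lrif1 (0.65), with limma adjusted p between 1.0e-08 and 0.0097. Krtcap2, described above among the oligosaccharyltransferase subunits, also held an ERSE-II. Of the genes that fell, Xlr3b and Xlr3c belong to a family of near-identical copies, so their reads may be divided among them.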
